A study of Mus musculus with 8 samples.

Results

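The genes of oxidative phosphorylation were followed in mouse peritoneal macrophages treated with lipopolysaccharide (LPS), with C498, or with both. The set held 159 of the 55801 genes in the expression table: 122 nuclear genes that the table's pathway column assigns to the oxidative phosphorylation map, and 37 genes encoded by mitochondrial DNA. The nuclear and mitochondrial genes are described apart. Peritoneal macrophages had been elicited with thioglycollate in male C57BL/6 mice aged 6 to 8 weeks, and RNA was sequenced in 8 samples, 2 in each of 4 groups. NC cells received the vehicle DMSO, LPS cells received LPS at 100 ng/ml for 4 h, C498 cells received C498 at 15 µM, and C498+LPS cells received C498 for 0.5 h and then LPS. C498 is a small molecule that the study examines as an inhibitor of inflammatory signalling, so the comparisons ask what LPS did to these genes, what C498 did alone, and what C498 did when LPS followed. The labels do not say whether the 2 samples of a group came from separate mice or cultures, so p-values measure the spread between these samples, which may be technical.

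Oxidative phosphorylation passes electrons from NADH and succinate through complexes I and II, then III, cytochrome c and IV to oxygen, and ATP synthase uses the resulting proton gradient to make ATP. Most subunits are encoded in the nucleus, but some core subunits of complexes I, III and IV and part of the ATP synthase are transcribed inside the mitochondrion from its own DNA, as long RNAs from each strand that are cut into mRNAs, rRNAs and tRNAs. In macrophages a shift from respiration towards glycolysis is a well-known response to LPS. The pathway map also holds the vacuolar H+-ATPase (V-ATPase), which uses ATP to acidify lysosomes, and inorganic pyrophosphatases.

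Values are TPM, a relative abundance of transcripts that the authors scaled by gene length and by the total of each library. The changes given here are differences of log2(TPM + 1) with their standard error (SE), tested with limma over 12189 genes whose mean TPM was at least 1. A gene passed the test where its p, adjusted by Benjamini-Hochberg, was 0.05 or lower. Of the 122 nuclear genes, 106 entered the test, 13 were listed at 0 in all 8 samples and 3 were above 0 but too low. The 13 genes at 0 included forms known from other tissues, such as *Cox4i2*, *Cox7b2*, *Cox8b*, *Cyct* and *Atp6v1b1*. Of the 37 mitochondrial genes, the 13 mRNAs and 2 rRNAs entered the test, and the 22 tRNAs were listed at 0 in every sample.

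The read depth of the libraries is unknown, since only TPM values were used, and every sample sums to the same total by construction. Some samples stood apart. In C498+LPS replicate 2 the mitochondrial genes took 4.60% of all TPM, against 3.12% in replicate 1 and between 1.80% and 3.07% in the other 6 samples, so the calls and sums that rest on it are also given without it. In NC the second replicate was higher than the first for 36 of 38 nuclear members under 700 bases (median log2 difference 0.28) and for 14 of 33 from 1500 bases (-0.083). Over all genes tested it was higher for 480 of 839 under 700 bases (median 0.092) and for 1827 of 9319 from 1500 bases (-0.28). Macrophage markers were high in all samples, 7 of 7 above a mean TPM of 1. Their summed TPM was 19847 to 20355 in NC, 16586 to 17222 in LPS, 15252 to 15412 in C498 and 10626 to 12411 in C498+LPS, lower without overlap in each of the 4 pairwise comparisons. Fibroblast markers, 5 of 5 above a mean TPM of 1, summed to 150 to 200 TPM in NC and LPS and to 618 to 911 TPM in the groups with C498. B cell markers, 3 of 5 above that mean, ranged from 17.7 to 24.9 TPM without C498 and from 41.6 to 119 TPM with it, while neutrophil markers, 3 of 7, were between 41.7 and 46.3 TPM without it and between 14.3 and 22.6 TPM with it, with *Elane* at 0. Mesothelial markers, 4 of 5, summed to 4.04 to 5.80 TPM without C498 and to 15.3 to 26.3 TPM with it. The macrophage list thus moves with every comparison below, and the other lists named so far with those of C498 against its control. The fibroblast, B cell and mesothelial sums of C498+LPS and C498 overlapped. Mast cell markers, 5 of 5 above that mean, overlapped between C498+LPS (8.57 to 22.5 TPM) and LPS (9.08 to 9.25 TPM). The neutrophil sum also separated C498+LPS (14.3 to 18.3 TPM) from C498 (20.0 to 22.6 TPM), and LPS (43.5 to 46.3 TPM) from NC (41.7 to 43.0 TPM). Their part in the results was not tested. In bulk RNA, fewer cells of a type and less RNA per cell cannot be told apart.

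Summed over the 13 mitochondrial mRNAs, TPM was lower after LPS and higher after C498. The summed TPM was 22487 and 20434 in NC, 16687 and 17404 in LPS, 28957 and 28318 in C498, and 29025 and 42529 in C498+LPS. Each group differed from NC without overlap, and the lower C498+LPS sample lay just above the C498 samples. The sum was 0.794 times the NC level in LPS, 1.33 times in C498, and 2.10 times the LPS level in C498+LPS. With 2 samples a group the exact two-sided permutation test cannot go below p = 0.33, and it gave 0.33 for each of these. Without C498+LPS replicate 2 the log2 difference to LPS fell from 1.04 to 0.77, and that to C498 from 0.30 to 0.02. With the samples centred on their median gene, the log2 difference of LPS to NC was -0.16 in place of -0.33. That of C498 to NC was then 0.30 in place of 0.42, and that of C498+LPS to C498 was 0.51 in place of 0.30.

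The summed TPM of the 85 nuclear subunits of the respiratory chain and ATP synthase was also lower after LPS, at 0.820 times the NC level, but was not higher with C498. It was 20683 and 24881 in NC, 17724 and 19625 in LPS, 19911 and 20237 in C498, and 17510 and 18428 in C498+LPS. The NC samples were the highest, and the LPS and C498+LPS samples overlapped. The log2 difference of LPS to NC was -0.28, and -0.11 with the samples centred on their median gene. With 1 sample left out it ran from -0.42 to -0.15. The ratio of mitochondrial to nuclear summed TPM was 1.09 and 0.821 in NC, 0.942 and 0.887 in LPS, 1.45 and 1.40 in C498, and 1.66 and 2.31 in C498+LPS. All 4 samples with C498 lay above all 4 without it.

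**Figure D1:**
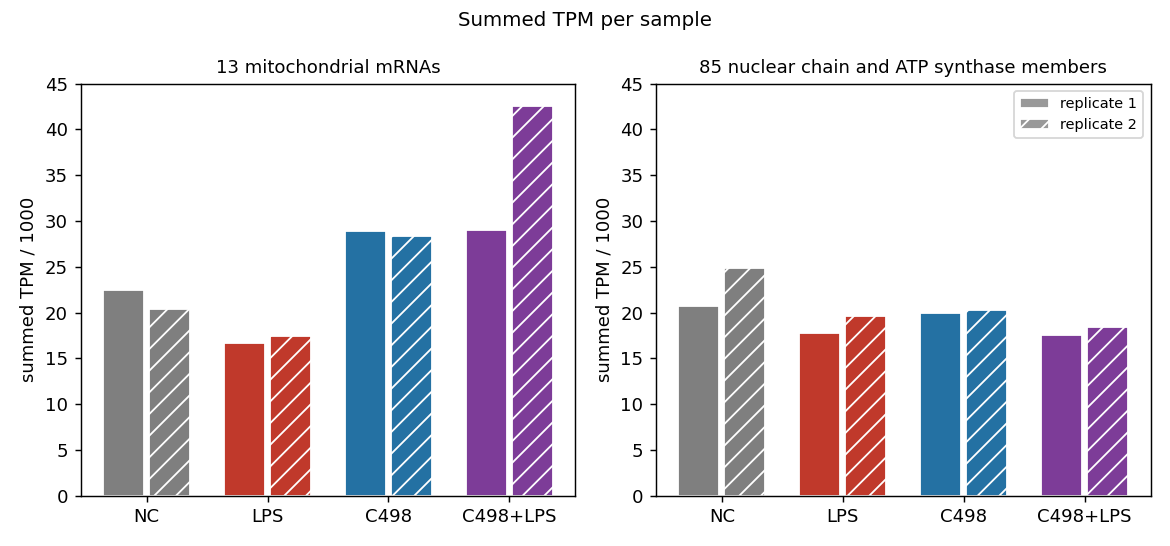
Summed TPM, on an axis scaled by 1000, for each sample, by group, for the 13 mitochondrial mRNAs and for the 85 nuclear subunits of the respiratory chain and ATP synthase; bars are single samples, plain for replicate 1 and hatched for replicate 2. The mitochondrial sum runs from 16687 in LPS replicate 1 to 42529 in C498+LPS replicate 2, while the nuclear sum stays between 17510 and 24881.

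LPS alone changed 1 of the 13 mitochondrial mRNAs, and that change was large. *mt-Atp6*, which encodes the proton-channel subunit a of ATP synthase, measured 1363 and 946 TPM in NC and 273 and 204 TPM in LPS, and its log2 change was -2.26 (SE 0.23, limma adjusted p = 0.000656). Both LPS samples lay far below both NC samples, and the call held in 16 of 16 alternatives. Among all genes tested, 19.8% passed as lower and 9.84% as higher after LPS, and 6.68% passed as lower and 5.55% as higher by at least 2-fold. The other 12 mitochondrial mRNAs had log2 changes between -1.41 and -0.042 that did not pass, and the median of the 13 was -0.25 beside -0.17 over all genes. The steepest of these was *mt-Nd3*, a small core subunit of complex I, with 1167 and 848 TPM in NC and 542 and 256 TPM in LPS (adjusted p = 0.067). With the samples centred on their median gene, the median of the 13 became -0.086, and *mt-Atp6* was still the single call.

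The position of *mt-Atp6* bears on how its value was made. In GRCm38 it spans chrM:7927-8607 on the + strand and shares its first bases with the end of *mt-Atp8*, at chrM:7766-7969, which encodes another ATP synthase subunit. Both are translated from the same mRNA, which is known to be bicistronic. The shared stretch of 43 bases, in capitals between flanks of 30 bases, shows where reads cannot be assigned to 1 gene by position alone (sequence from GENCODE M21, chrM:7897-7999):
mt-Atp8/mt-Atp6: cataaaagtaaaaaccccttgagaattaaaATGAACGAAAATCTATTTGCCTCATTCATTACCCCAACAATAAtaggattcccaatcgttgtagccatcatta
The capitals open with the start codon of *mt-Atp6* and close with the stop codon of *mt-Atp8*. The other bicistronic pair, *mt-Nd4l* and *mt-Nd4*, overlaps by 7 bases (chrM:10137-10203, capitals again the shared part):
mt-Nd4l/mt-Nd4: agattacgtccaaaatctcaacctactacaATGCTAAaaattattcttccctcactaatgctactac
*mt-Atp8* measured 1013 and 683 TPM in NC and 468 and 652 TPM in LPS (log2 change -0.59, SE 0.35, adjusted p = 0.251). The ratio of *mt-Atp6* to *mt-Atp8* was 1.35 and 1.39 in NC, 0.582 and 0.313 in LPS, 3.46 and 1.40 in C498, and 1.07 and 0.869 in C498+LPS. Thus the 2 reading frames of 1 mRNA did not keep a fixed ratio in this table, and how reads in the overlap were divided between them was not tested.

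C498 alone raised 4 of the 13 mitochondrial mRNAs and 1 of the 2 rRNAs, against 9.29% of all genes higher and 6.19% lower. *mt-Atp6* rose from 1363 and 946 TPM to 2432 and 1820 TPM (log2 change 0.89, SE 0.23, adjusted p = 0.044). *mt-Nd4l* rose from 1149 and 803 TPM to 1698 and 1711 TPM (0.83, SE 0.16, adjusted p = 0.017). *mt-Nd4*, also of complex I, and *mt-Co1*, the catalytic subunit of complex IV, rose by log2 0.55 (adjusted p = 0.044) and 0.47 (adjusted p = 0.029), and the large rRNA *mt-Rnr2* rose by 0.67 (adjusted p = 0.038). None of these calls reached 2-fold, while 5.64% of all genes passed as higher and 1.36% as lower by that much. The median log2 change of the 13 mRNAs was 0.46 beside 0.014 over all genes, with 12 of 13 above 0. These calls rest on few samples: without either C498 replicate 0 of the mRNAs passed, and without NC replicate 2 or either LPS replicate 1 did.

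C498 before LPS gave more mitochondrial calls than the other comparisons. Compared with LPS alone, 9 of the 13 mitochondrial mRNAs and both rRNAs passed as higher and none as lower, while 9.08% of all genes passed as higher and 7.70% as lower. Of these, 6 mRNAs and both rRNAs rose by at least 2-fold, against 5.39% of all genes, and no member fell by as much, against 2.18%. The median log2 change of the 13 was 1.20, beside 0.0065 over all genes, and 0.79 without C498+LPS replicate 2. *mt-Atp6* went from 273 and 204 TPM to 995 and 1231 TPM (log2 change 2.23, SE 0.23, adjusted p = 0.0016), back to the range of NC. *mt-Co2*, the copper-binding subunit of complex IV and the most abundant member, went from 3662 and 4058 TPM to 8628 and 14649 TPM (1.54, SE 0.22, adjusted p = 0.0045). For both genes, each C498+LPS sample exceeded each LPS sample.

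Complex I mRNAs made up most of the rest. *mt-Nd1* measured 1174 and 1361 TPM in LPS and 2865 and 4304 TPM in C498+LPS (log2 change 1.47, SE 0.18, adjusted p = 0.0026). *mt-Nd2* rose by 1.26, *mt-Nd4* by 1.20, *mt-Nd6* by 0.85 and *mt-Nd4l* by 0.59. *mt-Cytb*, the mitochondrial subunit of complex III, rose by 1.26 and *mt-Co1* by 0.72. *mt-Nd6* is the only mRNA on the opposite strand, and it moved in the same direction as its neighbours. The rRNAs *mt-Rnr1* and *mt-Rnr2* rose by 1.07 and 1.27.

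The 4 mRNAs that did not pass were *mt-Atp8* (log2 change 1.05, adjusted p = 0.086), *mt-Nd3* (1.47, adjusted p = 0.086), *mt-Nd5* (0.36, adjusted p = 0.117) and *mt-Co3* (-0.20, adjusted p = 0.64). *mt-Co3*, at chrM:8607-9390 directly after *mt-Atp6*, measured 2645 and 2677 TPM in LPS and 1749 and 3061 TPM in C498+LPS, so its groups overlapped. Without C498+LPS replicate 2, 8 of the 13 mRNAs and both rRNAs still passed, and *mt-Nd4l* did not (adjusted p = 0.181). The 8 log2 changes then ran from 0.60 for *mt-Co1* to 2.07 for *mt-Atp6*, with 1.16 for *mt-Co2* and 1.18 for *mt-Nd1*, and those of *mt-Rnr1* and *mt-Rnr2* were 0.71 and 1.00. The smallest count with a sample left out was 5, without LPS replicate 1. Centring on the median gene left the count at 9, and the median log2 change at 1.12.

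**Figure D2:**
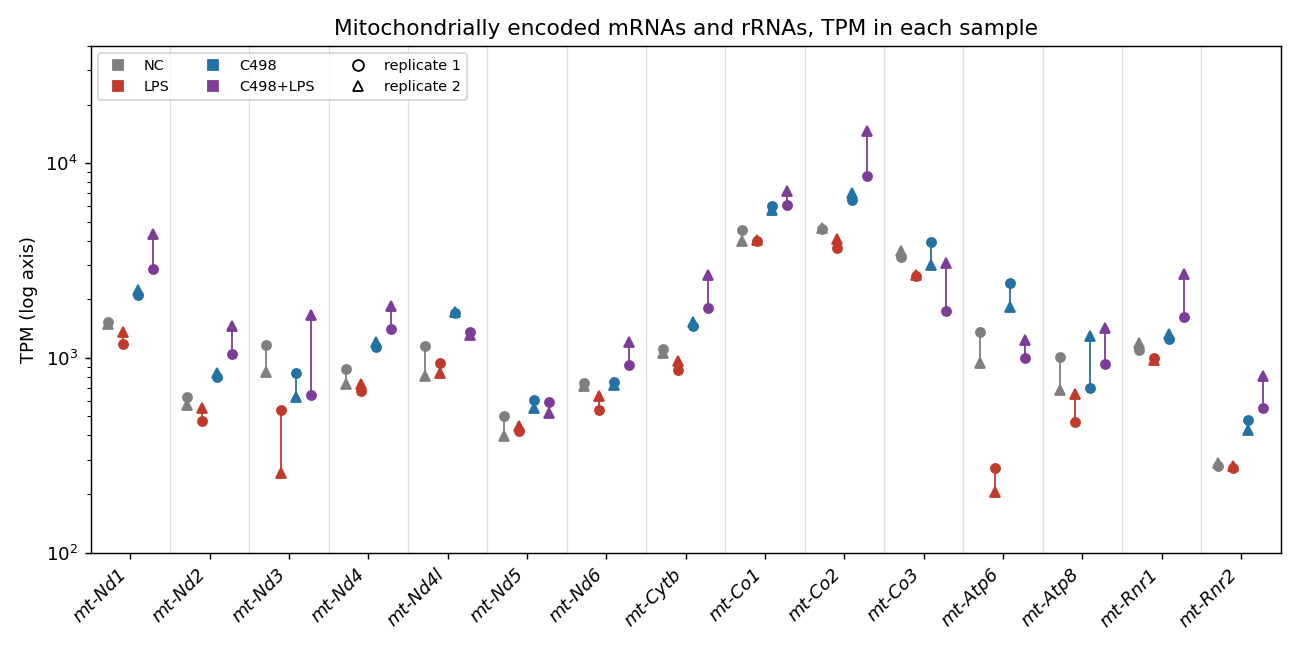
TPM of the 13 mitochondrial mRNAs and 2 rRNAs on a log axis; each point is 1 sample (circle replicate 1, triangle replicate 2), coloured by group, with a line joining the 2 samples. The C498+LPS points lie above the LPS points for 12 of the 13 mRNAs, as they do for 31.9% of all genes tested, and mt-Atp6 shows the wide gap between LPS (273 and 204) and NC (1363 and 946).

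Between C498+LPS and C498 the mitochondrial mRNAs moved in both directions. *mt-Nd1*, *mt-Nd2* and *mt-Nd6* passed as higher, by log2 0.69, 0.59 and 0.52, and *mt-Atp6* as lower, by -0.93 (adjusted p = 0.038), while 4.51% of all genes passed as higher, 11.7% as lower, and by at least 2-fold 2.52% as higher and 3.13% as lower. The *mt-Atp6* call held in 6 of 16 alternatives, and it was lost on centring (-0.71, adjusted p = 0.062) and without any 1 of the LPS, C498 or C498+LPS samples. The interaction of this gene, which tests the difference between its LPS changes with and without C498, was 1.34 on the log2 scale (SE 0.33, adjusted p = 0.192). The 3 calls of higher level rest on C498+LPS replicate 2: without it the log2 changes were 0.40, 0.35 and 0.32, and none passed. Of the 13, 0 passed in either direction in limma without either LPS or either C498 replicate. The interaction of C498 and LPS passed for 0 of the 13 mRNAs in limma, and for 0.492% of all genes. At an unadjusted p under 0.05 there were 8 of the 13, against 11.1% of all genes, and the median was 0.82, beside -0.026 over all genes. The 13 mRNAs share libraries, so they are not independent. These interactions include C498+LPS replicate 2. Without it the log2 difference of the summed mRNAs between C498+LPS and C498 fell from 0.30 to 0.02.

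LPS lowered 31 of the 106 nuclear genes tested (29.2%, against 19.8% of all genes) and raised 4 (3.77%, against 9.84%), and 90 had a negative log2 change. The median was -0.28, beside -0.17 over all genes, of which 7672 of 12189 were negative. The counts depended on the scaling, and with quantile normalization 46 passed as lower and 4 as higher. With the samples centred on the median gene, 7 passed as lower (6.60%, against 11.96% of all genes) and 3 as higher (2.83%, against 14.6%). The share of lower calls was thus above that of all genes before centring and below it after. The count of lower calls also dropped to 8 without LPS replicate 1, to 13 without LPS replicate 2 and to 20 without either C498 replicate. Without LPS replicate 1 the share of lower calls was 7.55% beside 8.98% of all genes.

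Complex I, the NADH dehydrogenase, held 15 of the 31 falls. All 35 of its nuclear subunits had a negative log2 change after LPS, between -0.61 and -0.20, with a median of -0.34, and 15 passed as lower (42.9%, against 19.8% of all genes). *Ndufs7*, an iron-sulphur subunit of the electron path to ubiquinone, measured 215 and 235 TPM in NC, 147 and 151 TPM in LPS, 159 and 185 TPM in C498, and 122 and 126 TPM in C498+LPS. It fell with LPS by 0.59 on the log2 scale (SE 0.10, adjusted p = 0.0053) and also passed in C498 against NC (-0.39) and in C498+LPS against C498 (-0.46). *Ndufa3*, an accessory subunit and the most abundant of the complex, went from 592 and 653 TPM to 362 and 479 TPM (-0.58, adjusted p = 0.019). *Ndufa6* (-0.61), *Ndufb5* (-0.61) and *Ndufv2* (-0.57), the last an iron-sulphur subunit of the NADH-binding module, were the others past -0.5. After centring, the median of the 35 was -0.17, still with 35 negative, and 0 passed in limma. The 15 calls became 2 without LPS replicate 1 (5.71%, against 8.98% of all genes), 5 without LPS replicate 2 (14.3%, against 8.75%) and 5 with only the NC and LPS samples fitted.

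With C498 alone 3 of the 35 complex I subunits passed as lower, *Ndufc2*, *Ndufa11* and *Ndufs7*, a share of 8.57% near the 6.19% of all genes. *Ndufc2*, an accessory subunit of the membrane arm, measured 158 and 175 TPM in NC, 122 and 119 TPM in LPS, 113 and 109 TPM in C498, and 97.1 and 116 TPM in C498+LPS. NC was above all other samples, and C498 against NC gave -0.58 (SE 0.11, adjusted p = 0.016). Between C498+LPS and LPS 0 of the 35 passed in limma, with 4 at an unadjusted p under 0.05 (11.4%, against 31.2% of all genes) and a median of -0.067. The mitochondrial subunits of the same complex, summed over 7 mRNAs, had 2.21 times the LPS level in that comparison (1.84 times without C498+LPS replicate 2), and their nuclear partners 0.966 times.

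Complex II, succinate dehydrogenase, has no mitochondrial subunit, and its iron-sulphur subunit *Sdhb* was the single nuclear member that passed in all 4 pairwise comparisons. It measured 231 and 245 TPM in NC, 166 and 184 TPM in LPS, 170 and 165 TPM in C498, and 122 and 136 TPM in C498+LPS. The samples with 1 agent lay between NC and the samples with both. The log2 changes were -0.45 (LPS against NC), -0.51 (C498 against NC), -0.44 (C498+LPS against LPS) and -0.37 (C498+LPS against C498), with adjusted p = 0.014, 0.016, 0.024 and 0.042, and an interaction of 0.07 (SE 0.14). The calls held in 14, 13, 7 and 7 of 17 alternatives. *Sdha*, the flavoprotein that binds succinate, measured 116 and 100 TPM in NC, 102 and 94.9 TPM in LPS, 110 and 112 TPM in C498 and 82.2 and 71.9 TPM in C498+LPS, and passed in C498+LPS against C498 (-0.52, adjusted p = 0.022), in 12 of 17 alternatives. The membrane anchor *Sdhd* fell with LPS (-0.36, adjusted p = 0.018), and the other anchor, *Sdhc*, had -0.29 with LPS and did not pass.

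Complexes III and IV held few calls. In complex III, 1 of 9 nuclear genes passed as lower after LPS (11.1%, against 19.8% of all genes), *Uqcrb* (-0.47). In C498+LPS against LPS 1 did (11.1%, against 7.70% of all genes), *Cyc1*. *Cyc1*, the haem-bearing cytochrome c1, measured 148 and 151 TPM in LPS and 113 and 112 TPM in C498+LPS (-0.41, SE 0.08, adjusted p = 0.014), with 160 and 168 TPM in NC. The most abundant subunit, *Uqcrq*, had 451 and 760 TPM in the NC samples, a spread wider than any difference between groups. In complex IV, 1 of 15 passed as lower with LPS (6.67%) and 0 in the other 3 pairwise comparisons in limma, with 2, 1 and 1 at an unadjusted p under 0.05 (13.3%, 6.67% and 6.67%, against 32.0%, 31.2% and 31.9% of all genes). That 1 was *Cox7a1*, the form known from heart and muscle, which was low: 6.02 and 5.48 TPM in NC, 0.67 and 0 TPM in LPS, 2.20 and 4.45 TPM in C498, and 1.22 and 2.46 TPM in C498+LPS (LPS against NC -2.38, SE 0.38, adjusted p = 0.0040). Its widely used counterpart *Cox7a2* had 344 and 509 TPM in NC and 316 and 374 TPM in LPS and did not pass (-0.28). *Cox6a1*, the most abundant subunit, had 941 and 1197 TPM in NC and 954 and 998 TPM in LPS. The muscle form *Cox6a2* kept between 9.07 and 15.6 TPM. Neither these nor *Cox7a2l* (179 to 229 TPM), a relative of *Cox7a2*, *Cox4i1* (793 to 1007 TPM) or *Cox8a* (607 to 827 TPM) passed in any comparison. The electron carrier *Cycs*, cytochrome c, kept between 32.6 and 41.6 TPM in all samples and did not pass in any comparison. A predicted gene that resembles it, *Gm10053*, measured 89.0 to 132 TPM, and how reads were divided between the 2 is uncertain. The copper chaperone *Cox17*, the most abundant of 4 assembly factors in the map, had 267 to 346 TPM and did not pass either.

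The ATP synthase held 4 falls among 15 nuclear genes after LPS (26.7%, near the 19.8% of all genes). That count was 1 after centring but 11 with quantile normalization, and it was smaller without LPS replicate 1. The clearest fall was in subunit c, the rotating ring, which 3 genes encode as the same mature protein. *Atp5g2* measured 41.6 and 39.9 TPM in NC, 24.6 and 18.2 TPM in LPS, 43.8 and 41.7 TPM in C498, and 29.1 and 24.2 TPM in C498+LPS. Samples with LPS lay below samples without it, by log2 -0.91 (SE 0.16, adjusted p = 0.0064) in vehicle and -0.67 (adjusted p = 0.035, in 10 of 17 alternatives) with C498. *Atp5g1* (319 and 364 TPM in NC) and *Atp5g3* (496 and 520 TPM) were far more abundant and had log2 changes of -0.25 and -0.23 that did not pass. *Atp5j* (-0.42), *Atp5o* (-0.37) and *Atp5c1* (-0.28) were the others that fell with LPS. *Atp5b*, the catalytic beta subunit, had 1505 and 1541 TPM in NC and 1306 and 1414 TPM in LPS (-0.16, adjusted p = 0.198).

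**Figure D3:**
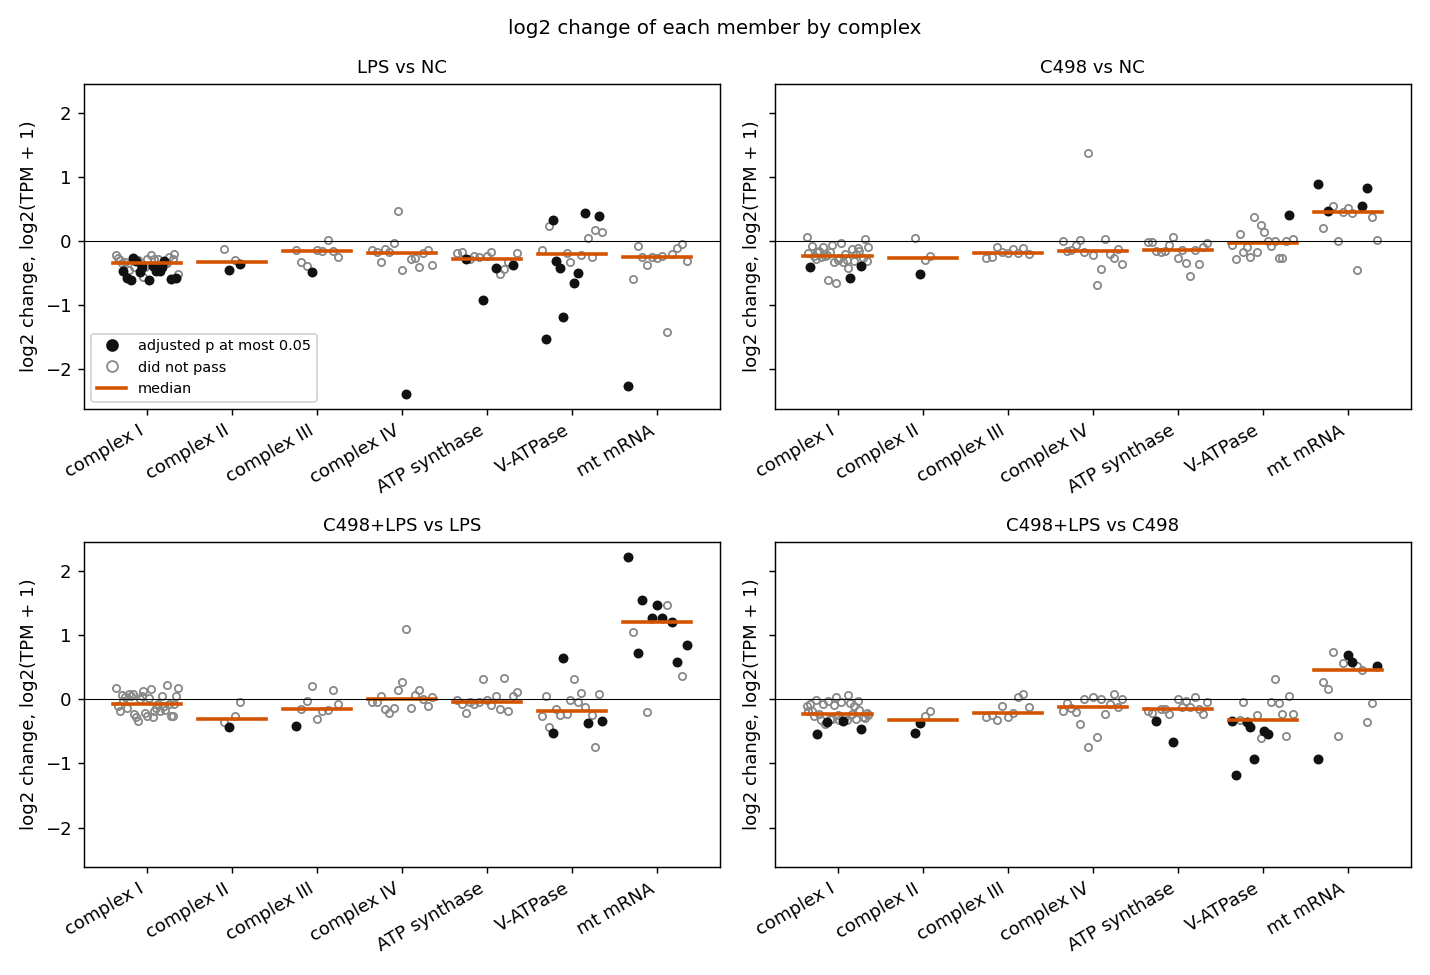
log2 change of log2(TPM + 1) for each tested member, by complex, in the 4 pairwise comparisons; filled points passed at an adjusted p of at most 0.05, open points did not, and the orange line is the median of the group. The 35 nuclear complex I genes all lie below 0 after LPS (median -0.34), while the mitochondrial mRNAs lie mostly above 0 in both comparisons of C498 with its control (medians 0.46 and 1.20).

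Apart from *Cox7a1*, the largest nuclear falls with LPS were in 2 genes of the V-ATPase, *Atp6v0a1* and *Atp6v0d2*. Of its 18 tested genes, 6 passed as lower (33.3%, against 19.8% of all genes) and 3 as higher (16.7%, against 9.84%) after LPS. *Atp6v0a1*, a form of the membrane subunit a, measured 139 and 119 TPM in NC, 43.4 and 44.9 TPM in LPS, 104 and 107 TPM in C498, and 52.9 and 39.7 TPM in C498+LPS. It fell with LPS by 1.52 on the log2 scale (SE 0.15, adjusted p = 0.000494) and with LPS after C498 by 1.19 (adjusted p = 0.0031), both in 17 of 17 alternatives. The other forms of subunit a did not fall with it: *Tcirg1*, the a3 form known from osteoclasts and macrophages, had 661 and 656 TPM in NC and 725 and 729 TPM in LPS (0.14, adjusted p = 0.297), and *Atp6v0a2* had 0.23 (adjusted p = 0.514).

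Subunit d, which joins the membrane ring to the stalk, also has a widely used and a restricted form. *Atp6v0d2*, the form typical of osteoclasts and some macrophages, measured 280 and 204 TPM in NC, 113 and 97.0 TPM in LPS, 324 and 299 TPM in C498, and 172 and 156 TPM in C498+LPS. It fell with LPS by 1.19 on the log2 scale (SE 0.16, adjusted p = 0.0020), and was higher in C498+LPS than in LPS (0.64, adjusted p = 0.034), the single nuclear member that was. That call held in 9 of 17 alternatives. *Atp6v0d1*, the widely used form, fell by 0.42 (265 and 272 TPM to 195 and 205 TPM, adjusted p = 0.012). The cytosolic subunits *Atp6v1b2* (-0.66), which binds nucleotide, and *Atp6v1c1* (-0.50) fell too, as did *Atp6v0c* (-0.31), the ring subunit and at 3483 and 3770 TPM in NC the most abundant nuclear member.

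In contrast, *Atp6v1e1* (513 and 509 TPM in NC, 685 and 701 TPM in LPS), *Atp6v1h* (171 and 154 TPM, 218 and 208 TPM) and *Atp6v0b* (883 and 964 TPM, 1116 and 1192 TPM) rose with LPS by log2 0.44, 0.39 and 0.32, with adjusted p = 0.016, 0.019 and 0.027. *Atp6v1h*, a regulatory subunit, also rose with C498 alone (220 and 213 TPM, 0.41, adjusted p = 0.028). *Atp6v0b* was lower in C498+LPS, at 819 and 781 TPM, than in LPS (-0.53, SE 0.08, adjusted p = 0.0074), and so was *Tcirg1* (624 and 530 TPM, -0.34, adjusted p = 0.049). The *Tcirg1* call held in 5 of 17 alternatives and was lost when the mitochondrial genes were left out of the TPM total. After centring, 4 V-ATPase genes passed as lower (22.2%, against 11.96% of all genes) and 2 as higher (11.1%, against 14.6%) with LPS. Without either LPS replicate the LPS counts were 3 lower and 0 higher. In C498+LPS against C498, 7 of 18 passed as lower (38.9%, against 11.7% of all genes) and 0 as higher. That count was 2 after centring, 2 without C498+LPS replicate 1, and 1 without C498+LPS replicate 2 or either C498 replicate. The shares of all genes in these refits of C498+LPS against C498 are not given here. Those counts therefore do not show whether the excess over all genes remained. Of the stalk subunit G forms, *Atp6v1g1* (241 to 369 TPM) and the brain form *Atp6v1g2* (0.99 to 2.85 TPM) did not pass in any comparison, and *Atp6v1g3*, *Atp6v1c2* and *Atp6v0a4* were listed at 0.

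The pyrophosphatases, which split the pyrophosphate left by biosynthesis, moved apart. Cytosolic *Ppa1* measured 45.6 and 42.7 TPM in NC, 58.2 and 62.6 TPM in LPS, 56.6 and 55.0 TPM in C498, and 73.9 and 83.6 TPM in C498+LPS. It rose with LPS without C498 (0.44, adjusted p = 0.018) and with it (0.49, adjusted p = 0.023), each in 14 of 17 alternatives. Mitochondrial *Ppa2* fell from 17.2 and 17.0 TPM to 8.36 and 10.8 TPM (-0.78, adjusted p = 0.018), and *Lhpp*, a related phosphatase, fell by 0.69 (adjusted p = 0.023).

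In all, C498 against NC changed 5 of the 106 nuclear members, *Atp6v1h* upward and *Ndufc2*, *Sdhb*, *Ndufa11* and *Ndufs7* downward. C498+LPS against LPS changed 6, *Atp6v0d2* upward and *Atp6v0b*, *Sdhb*, *Cyc1*, *Atp6v1f* and *Tcirg1* downward. Their shares as lower, 3.77% and 4.72%, lie below the 6.19% and 7.70% of all genes. Those as higher, 0.943% in each, lie below 9.29% and 9.08%. C498+LPS against C498 lowered 15 and raised *Ppa1* alone (0.943%, against 4.51% of all genes), and the share of 14.2% as lower lies near the 11.7% of all genes. The interaction passed for 0 nuclear members in limma, with 9 at an unadjusted p under 0.05 (8.49%, against 11.1% of all genes). These counts depend on the samples: they were 0 without either C498 replicate in the first comparison and 0 without LPS replicate 2 or C498+LPS replicate 2 in the second, but 26 and 13 without NC replicate 1. In the third, 1 passed without either C498 replicate or without C498+LPS replicate 2, 4 without C498+LPS replicate 1 and 9 without either LPS replicate.

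A gene outside the map had a larger log2 change with LPS than any tested member. *AA467197* encodes a paralogue of *Ndufa4*, a subunit once assigned to complex I and now to complex IV, and is the mouse counterpart of NMES1. It measured 48.0 and 62.2 TPM in NC, 547 and 530 TPM in LPS, 66.6 and 50.3 TPM in C498, and 483 and 446 TPM in C498+LPS. LPS raised it by log2 3.28 (SE 0.16, adjusted p = 2.75e-05) without C498 and by 2.98 (adjusted p = 9.45e-05) with it, in 17 of 17 alternatives each. *Ndufa4* measured 282 and 383 TPM in NC, 230 and 280 TPM in LPS, 252 and 262 TPM in C498, and 238 and 281 TPM in C498+LPS, and did not pass, and *Ndufa4l2* was too low to be tested. The ratio of *AA467197* to *Ndufa4* was 0.170 and 0.163 in NC and 0.264 and 0.192 in C498, but 2.38 and 1.89 in LPS and 2.03 and 1.59 in C498+LPS. The paralogue exceeded *Ndufa4* in every sample with LPS and in none without it.

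**Figure D4:**
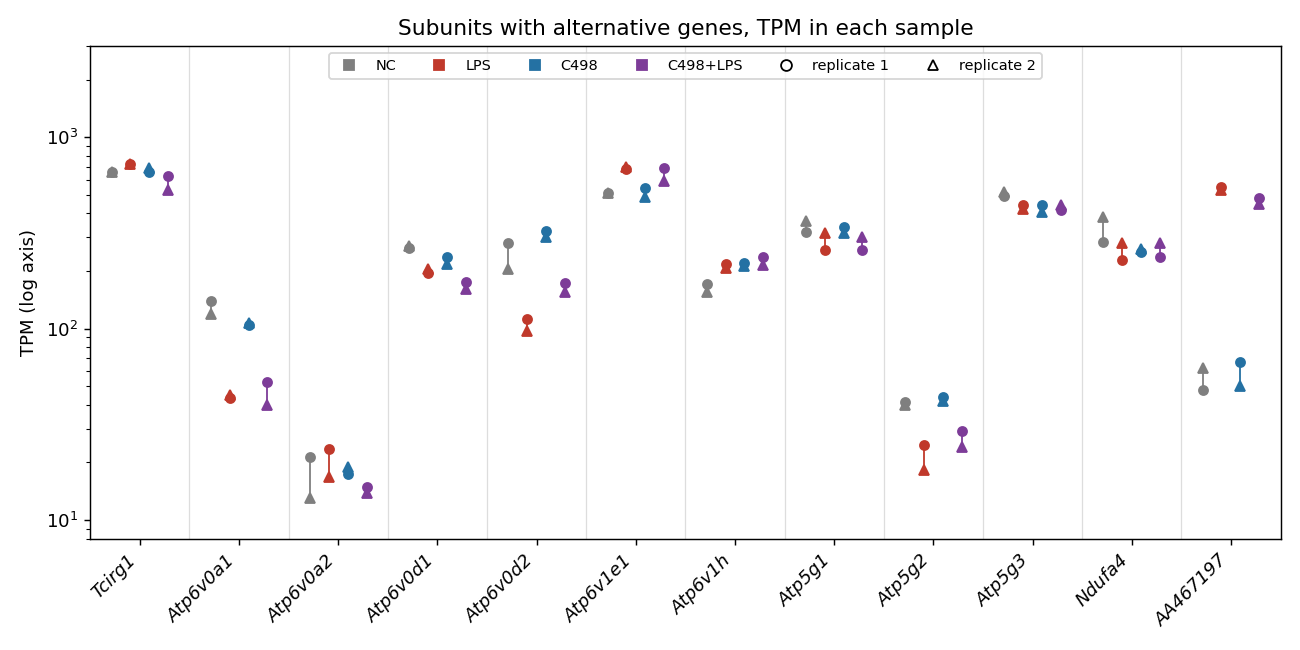
TPM on a log axis of subunits that have alternative genes, and of 2 V-ATPase subunits that rose with LPS; each point is 1 sample (circle replicate 1, triangle replicate 2), coloured by group. Atp6v0a1, Atp6v0d2 and Atp5g2 lie lower in both LPS groups, while AA467197 rises from 48.0 and 62.2 TPM in NC to 547 and 530 TPM in LPS and Ndufa4 does not.

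The genes that build and feed the chain were examined as lists, whose shares are set beside the 19.8% of all genes lower and 9.84% higher with LPS, and the 6.19% lower and 9.29% higher with C498. Of 40 assembly factors tested, 15 passed as lower (37.5%) and 2 as higher (5.0%) after LPS (median -0.47), and 7 as lower (17.5%) after C498 alone. The complex I factor *Tmem126b* measured 19.2 and 17.7 TPM in NC, 8.26 and 7.20 TPM in LPS, 10.8 and 11.99 TPM in C498, and 5.72 and 5.90 TPM in C498+LPS, and passed as lower with LPS (-1.16, adjusted p = 0.0016) and with C498 (-0.65, adjusted p = 0.028, in 10 of 17 alternatives). *Coa6*, *Ndufaf7* and *Uqcc3*, factors of complexes IV, I and III, also fell by at least 2-fold with LPS, the last 2 not without LPS replicate 1. Of 79 mitochondrial ribosomal proteins, which translate the 13 mRNAs, 30 passed as lower (38.0%) and 0 as higher with LPS, and 11 as lower (13.9%) and 1 as higher (1.27%) with C498. After centring, where 11.96% of all genes passed as lower with LPS, 5 assembly factors (12.5%) and 7 ribosomal proteins (8.86%) did. Without LPS replicate 1 these counts were 4 and 9, and the C498 counts were at most 1 without either C498 replicate. The 26 genes of mitochondrial transcription, RNA processing and replication tested gave 6 lower (23.1%) and 1 higher (3.85%) with LPS, shares near or below those of all genes, and 2 lower after centring or without LPS replicate 1. In C498+LPS against LPS 2 passed as higher (7.69%, against 9.08% of all genes) and 1 as lower. *Polg2*, the accessory subunit of the mitochondrial DNA polymerase, measured 4.62 and 4.66 TPM in NC, 0.73 and 1.60 TPM in LPS, 5.04 and 4.69 TPM in C498, and 2.39 and 3.10 TPM in C498+LPS, and fell with LPS (-1.41, adjusted p = 0.0060). *Tfam*, which packages mitochondrial DNA and starts its transcription, measured 26.03 and 13.1 TPM in NC, 24.4 and 25.8 TPM in LPS, 16.7 and 18.8 TPM in C498 and 15.2 and 25.2 TPM in C498+LPS, with overlapping groups.

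Among 11 tested regulators of nuclear respiratory genes and lysosomal genes, 2 passed as lower (18.2%) and 1 as higher (9.09%) with LPS, close to the 19.8% and 9.84% of all genes. *Tfeb*, a master regulator of lysosomal genes including the V-ATPase, measured 40.2 and 40.2 TPM in NC, 9.10 and 11.1 TPM in LPS, 20.1 and 24.1 TPM in C498, and 10.4 and 9.90 TPM in C498+LPS. It fell with LPS by 1.90 on the log2 scale (adjusted p = 0.000172) and with C498 alone by 0.84 (adjusted p = 0.012), the latter not without either C498 replicate. *Ppargc1b*, a coactivator of mitochondrial biogenesis, was low, and fell from 2.77 and 1.41 TPM to 0.44 and 0.35 TPM with LPS (-1.11, adjusted p = 0.036), a call lost without either LPS replicate. *Gabpb1*, a subunit of the factor GABP that binds many respiratory promoters, rose from 10.3 and 10.5 TPM to 24.9 and 19.7 TPM with LPS (1.02, adjusted p = 0.0054). Of 11 genes that carry or feed electrons or exchange solutes across the inner membrane, 4 passed as lower (36.4%) and 1 as higher (9.09%) with LPS. The count of lower calls was 2 without either LPS replicate. Those that fell were *Ucp2* (-0.85), a carrier of the inner membrane, *Etfb* (-0.64) and *Etfdh* (-0.60), which bring electrons from fatty acid oxidation, and *Slc25a4* (-0.33), which exchanges ADP for ATP. *Gpd2*, which passes electrons from glycerol 3-phosphate to ubiquinone, rose from 17.5 and 10.9 TPM to 43.4 and 36.5 TPM (1.46, adjusted p = 0.0058), a call lost without LPS replicate 1 (adjusted p = 0.055), and was lower in C498+LPS, at 21.3 and 16.1 TPM, than in LPS (-1.06, adjusted p = 0.031), though not without C498+LPS replicate 2 (adjusted p = 0.197).

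The promoters of the nuclear members were read from RefSeq (GRCm38.p6, 250 bases before to 50 after each start). A promoter was found for 83 of 104 tested genes, predicted genes left out. The core of the NRF1 site, GCGCATGC on either strand, occurred in 13 of the 83 genes (15.7%) and in 3.05% of all 27025 genes with a promoter. The ETS core bound by GABP, CCGGAAG on either strand, occurred in 22 (26.5%) and in 9.93% of all genes. The palindromic E-box TCACGTGA, the core of the TFEB site, occurred in 4 (4.82%, against 1.12%), 3 of them among 12 V-ATPase promoters, *Atp6v0d1*, *Atp6v0e* and *Atp6v1a*. Among chain members, the NRF1 core was in 3 of 19 genes that fell with LPS (15.8%) and in 8 of 47 that did not pass (17.0%), and the ETS core in 21.1% and 25.5%. These are counts of letters in a window and do not show binding.

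The 150 bases before the start are shown for 3 promoters that hold the NRF1 core: *Sdhb*, which passed as lower in all 4 comparisons, *Ndufa11*, which fell with C498, and *Atp6v1e1*, which rose with LPS. Capitals mark the NRF1 core and, in *Atp6v1e1*, also the ETS core.
Sdhb (chr4:140961121-140961270, + strand): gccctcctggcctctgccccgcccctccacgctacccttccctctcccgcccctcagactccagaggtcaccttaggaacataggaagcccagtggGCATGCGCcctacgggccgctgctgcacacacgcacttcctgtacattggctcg
Ndufa11 (chr17:56717612-56717761, + strand): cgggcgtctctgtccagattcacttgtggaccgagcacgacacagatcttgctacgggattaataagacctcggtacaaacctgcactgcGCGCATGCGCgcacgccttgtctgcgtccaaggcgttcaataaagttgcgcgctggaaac
Atp6v1e1 (chr6:120822699-120822848, - strand): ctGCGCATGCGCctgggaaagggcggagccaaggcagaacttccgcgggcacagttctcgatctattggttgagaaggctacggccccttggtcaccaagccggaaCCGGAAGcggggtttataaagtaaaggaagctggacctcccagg
In *Ndufa11* and *Atp6v1e1* the core is read on both strands, so that 2 matches overlap. The cores start 54 bases before the gene's start in *Sdhb*, 60 in *Ndufa11* and 148 in *Atp6v1e1*, where the ETS core starts at 44.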

How the data were processed

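RNA of 8 samples, 2 in each of 4 groups, was made into TruSeq libraries and sequenced on an Illumina NovaSeq. According to the methods and the submitters' processing notes, fastp was used to filter the reads, HISAT2 to align them, StringTie for assembly and RSEM for quantification by the authors; versions, genome build and annotation are not given in the sources used here. The deposited table gives TPM for each gene in each sample, group means and annotation, and the authors tested counts with DESeq2. Only the sample TPM columns were used here, and all were mapped to a sample. Depth is unknown, so counting error cannot be given.

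Each gene was fitted with limma 3.58.1 (R 4.3.3) on log2(TPM + 1), with variance trend, where the mean over all 8 samples reached 1 TPM. All 4 groups shared 1 fit, with Benjamini-Hochberg adjustment within each of 5 comparisons. The fit was tested on simulated data. Summed TPM was compared with the exact permutation test. The genes named were all mitochondrial mRNAs and rRNAs, nuclear members past 2-fold, the 3 largest rises and falls per comparison, the most abundant of each complex, complex II, the alternative forms of a subunit, and related genes past 2-fold. The remaining names (*Ucp2*, *Etfb*, *Etfdh*, *Slc25a4*, *Ndufs7*, *Uqcrb*, *Ppa2*, *Lhpp*, *Tfam*, *Ndufa6*, *Ndufb5*, *Ndufv2*, *Atp6v1f*, *Atp5j*, *Atp5o*, *Atp5c1* and genes holding a motif) were chosen after their values were seen. The members and lists were chosen with earlier results of these data known. Gene positions come from GENCODE M21 (GRCm38), which holds all 159 members' identifiers. Alternatives covered the pseudocount, the filter, the scaling, the variance model, the samples fitted, the replicate block and each sample left out.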

Additional observations from a re-analysis of the deposited data

Results flagged for a closer look

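For 12 of the 63 named genes tested (19.0%, against 6.51% of all genes tested) every sample moved one way under a treatment in 1 setting and the opposite way in the other. Of these, 9 did so for the effect of LPS (14.3%, against 2.63% of all genes) and 3 for that of C498 (4.76%, against 4.44%). The named genes share libraries and include all the mitochondrial mRNAs, so they are not independent. Some were also named for their changes in these same data, so setting their share beside that of all genes is not a test. With LPS, both samples of *mt-Nd1*, *mt-Nd2*, *mt-Nd4*, *mt-Nd6*, *mt-Cytb*, *mt-Co2* and *mt-Rnr1* were lower than NC, but with C498 present both were higher after LPS than before. The log2 interactions were 0.95, 0.82, 0.65, 0.83, 0.80, 1.00 and 0.90, with limma adjusted p between 0.174 and 0.33, so the difference did not pass for any of them. In these 7, C498+LPS replicate 2 was above replicate 1. *Tcirg1* and *Atp6v1g2* had the reverse pattern, higher with LPS alone and lower with LPS after C498, with interactions of -0.37 and -0.74 (adjusted p = 0.382 and 0.447).

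With C498, *mt-Nd3* was lower than NC without LPS (log2 change -0.46) and higher with it (1.47), an interaction of 1.93 (adjusted p = 0.38). *Cox7a1* had -0.69 and 1.10, an interaction of 1.79 (adjusted p = 0.297), at TPM values of at most 6.02. *Cycs* had 0.06 and -0.15, an interaction of -0.21 (adjusted p = 0.669). With 2 samples a group, such opposite moves also arise from the spread between samples, and none of the 12 interactions passed.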

How the results depend on the processing

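Named genes kept their direction in all 1251 refits of their 75 calls. In some of these refits the log2 change could not differ from the main fit, so the kept direction says nothing there. They are the refits with only the groups compared, without the variance trend, with the replicate block, or without a sample outside the comparison. Of the 1251 refits, 326 no longer passed, and 20 of the 75 calls held under every alternative. The calls of the nuclear members for LPS vs NC (35) numbered 10 when centred on the median gene, 12 with only the groups compared, 20 without the variance trend and 3 at a fold change of at least 2. For C498 vs NC (5 nuclear, 4 mitochondrial), the nuclear count was 3 without a filter, 2 centred, 0 with only the groups compared, 2 without the trend and 0 at 2-fold; the mitochondrial count was 0 without a filter, 2 centred, 2 with quantile normalization, 0 with only the groups compared, 1 without the trend and 0 at 2-fold. For C498+LPS vs LPS (6 nuclear), it was 3 without a filter, 11 with quantile normalization, 3 with only the groups compared, 3 without the trend and 0 at 2-fold. For C498+LPS vs C498 (16 nuclear, 4 mitochondrial), the nuclear count was 9 without a filter, 3 centred, 4 without the trend and 1 at 2-fold, and the mitochondrial count was 0, 2 (quantile), 1 (only the groups compared), 0 (no trend) and 0 (2-fold).

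With 1 sample left out, the nuclear counts ranged from 8 to 52 (LPS vs NC), 0 to 26 (C498 vs NC), 0 to 13 (C498+LPS vs LPS) and 1 to 24 (C498+LPS vs C498), and the mitochondrial counts from 1 to 2, 0 to 6, 5 to 10 and 0 to 6. A lone sample was assumed to vary like the other groups. The interaction counts remained 0 in every alternative in limma, with 9 nuclear and 8 mitochondrial members at an unadjusted p under 0.05.

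The log2 difference of the summed mitochondrial mRNAs, LPS vs NC (-0.33), was -0.16 centred and -0.25 as the median member, C498 vs NC (0.42) was 0.30 centred, and C498+LPS vs C498 (0.30) was 0.51 centred. That of the nuclear chain, LPS vs NC (-0.28), was -0.11 centred, C498 vs NC (-0.18) was -0.30, C498+LPS vs LPS (-0.054) was -0.13 and C498+LPS vs C498 (-0.16) became 0.054. Centring left the mitochondrial count of C498+LPS vs C498 at 4, but as 4 higher and 0 lower in place of 3 and 1. With 1 sample left out these ranged, in the order of the 4 comparisons, from -0.40 to -0.26, 0.35 to 0.49, 0.77 to 1.32 and 0.02 to 0.57 for the mitochondrial sum, and from -0.42 to -0.15, -0.31 to -0.043, -0.13 to 0.02 and -0.20 to -0.12 for the nuclear sum; the reversal, 0.019, came without LPS replicate 2.

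Replicate numbers are shared between groups, but same-numbered samples did not deviate together in every pair of groups. Correlations were 0.040 to 0.168 over 12189 genes, and over the 121 tested members 0.60 for NC with LPS and -0.14 to 0.053 for the other 5 pairs, so they were not treated as pairs. With a replicate block the nuclear counts were 50 for LPS vs NC, 14 for C498 vs NC and 11 for C498+LPS vs LPS, and the other counts over all nuclear or all mitochondrial members stayed within 1.5 times. Within complex I the block gave 24 lower for LPS vs NC and 8 for C498 vs NC, and in the nuclear chain 38 and 12, against 23 and 4 without it.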
